A study of Mus musculus with 25 samples.

Results

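Iron handling and its hormone hepcidin were followed through 10 genes of mouse liver, which were chosen by name: *Hamp*, *Hamp2*, *Bmp6*, *Id1*, *Smad7*, *Tfrc*, *Tfr2*, *Slc40a1*, *Trf* and *Fth1*. Each symbol matched 1 Ensembl identifier among the 48795 genes of the deposited tables, and all 10 passed the filter on low counts, as did 15625 genes in all. Their values were read in 25 RNA libraries of polyadenylated RNA from pulverized liver or tumor tissue, taken from 36 weeks of age on from male mice of the inbred strain C57BL/6J. The carcinogen diethylnitrosamine (DEN), which hepatocytes convert into a DNA-damaging form, was injected at 25 mg/kg into the abdomen at 2 weeks of age, or not given (nonDEN), and a western diet (WD) or a control diet (CD) was fed from weaning. Livers without DEN formed the groups nonDEN-L-CD (3 libraries) and nonDEN-L-WD (4 libraries), named after the diet. After DEN, whole liver was taken on the control diet (DEN-L-CD, 4 libraries), whereas on the western diet peritumoral tissue (DEN-PT-WD, 8 libraries) was kept apart from tumors (DEN-T-WD, 6 libraries). DEN-L-CD livers can hold small tumors, which were not separated. The labels do not say which libraries came from separate mice, and p-values measure only the spread between these libraries. The iron content of the diets was not given in the sources used here.

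Hepcidin, the peptide encoded by *Hamp*, is made by hepatocytes and released into blood, where it binds the iron exporter ferroportin and causes its removal from the cell surface, so that less iron leaves the gut, macrophages and liver. Its transcription is driven by bone morphogenetic proteins such as BMP6, which endothelial cells of the liver make when iron is plentiful and which act through SMAD proteins, and by interleukin 6 through STAT3 in inflammation. Iron in cells also acts on mRNAs directly: iron regulatory proteins hold short stem loops called iron-responsive elements, which block translation when they lie in the 5′ UTR and protect the mRNA from decay when they lie in the 3′ UTR.

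The hepcidin genes, *Hamp* (chr7:30942368-30944032) and *Hamp2* (chr7:30922372-30924681, GRCm38), share sequence, so that their proximal promoters are shown, since both genes are compared below and both known inputs act there. Both stretches have 100 bases, are from RefSeq on GRCm38.p6, and are written 5′ to 3′ along the genes, which lie on the minus strand. The gene ranges are from GENCODE, and that of *Hamp2* reaches beyond the RefSeq start from which its promoter was taken. Capitals mark the letters GGCGCC, the core of the element through which BMP signals act, and TTCNNNGAA, the letters a STAT factor binds, both searched on both strands.
*Hamp* (chr7:30944069-30944168): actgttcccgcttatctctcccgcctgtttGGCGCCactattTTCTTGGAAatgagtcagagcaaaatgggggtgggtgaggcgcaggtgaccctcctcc
*Hamp2* (chr7:30924218-30924317): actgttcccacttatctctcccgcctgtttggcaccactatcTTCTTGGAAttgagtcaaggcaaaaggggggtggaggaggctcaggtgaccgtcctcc
The stretches were identical at 89 of 100 aligned bases. Where *Hamp* held GGCGCC, *Hamp2* differed by the substitution G4A (position counted from the 5′ end of the motif, the base of *Hamp* first), while the TTCNNNGAA site was the same in both. Among 32851 RefSeq promoter windows of 300 bases, 11.9% held GGCGCC, 8.30% held TTCNNNGAA and 0.645% held both. Of the 10 genes, *Hamp*, *Hamp2*, *Bmp6*, *Tfrc*, *Tfr2* and *Fth1* had a window in that table, and apart from the hepcidin genes only a window of *Tfrc* held either motif, 1 GGCGCC. These are matches of letters and not measured binding.

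The mRNAs that iron regulatory proteins are known to hold are shown by their stem loops, which were searched as the letters CAGTGN in a loop between arms of 5 bases that pair, with a C before the first arm (17 bases). Protein-coding transcripts of GENCODE M21 (GRCm38) held such a stem loop in 294 of 21901 genes, or 1.34%. Among the 10 genes it was found in *Fth1* (5′ UTR, 1 site), *Slc40a1* (5′ UTR, 1 site) and *Tfrc* (3′ UTR, 4 sites), and in no transcript of the other 7. Capitals mark the loop.
*Fth1* 5′ UTR (chr19:9982738-9982754, plus strand): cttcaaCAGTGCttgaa
*Slc40a1* 5′ UTR (chr1:45925471-45925487, minus strand): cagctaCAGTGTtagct
*Tfrc* 3′ UTR (chr16:32631225-32631241, plus strand): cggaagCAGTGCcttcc
*Tfrc* 3′ UTR (chr16:32631604-32631620, plus strand): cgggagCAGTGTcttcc
*Tfrc* 3′ UTR (chr16:32631669-32631685, plus strand): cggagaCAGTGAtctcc
*Tfrc* 3′ UTR (chr16:32631716-32631732, plus strand): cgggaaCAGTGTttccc
An mRNA level therefore reads *Tfrc* after this control on its stability, whereas for *Fth1* and *Slc40a1* control on translation would not be seen in these data.

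Total expected counts were between 21530083 and 38074411 per library, with a median of 27610432. Liver identity was checked with 7 hepatocyte genes, whose summed level was between 39732 and 159900 CPM (counts scaled to equal library sizes with TMM factors), and none was at 0 in any group. Libraries stood apart in 3 ways that touch the results. DEN-T-WD replicate 5 had 39732 CPM of hepatocyte genes against 121270 to 159900 CPM in the other 5 tumors, so results on tumors that turn on it are given with and without it. The labels do not tell whether its tissue is of the same kind as that of the other tumors. In nonDEN-L-CD the summed level of 14 acute phase genes, the liver proteins of inflammation, was 25600, 52034 and 54353 CPM, against 12115 to 29669 CPM over the other 4 groups. Pancreas genes ranged from 0.498 to 4464 CPM in sum and varied within every group.

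Levels of the 10 genes were compared with each other per length, as TPM. *Trf* (chr9:103204001-103230444, minus strand), which encodes transferrin, the iron carrier of blood, had the highest median over the 25 libraries (10606 TPM, rank 16 of all genes), followed by *Fth1* (chr19:9980598-9985098, plus strand), the heavy chain of the iron store ferritin (1880 TPM), and *Hamp* (1390 TPM, rank 79). *Tfr2* (chr5:137569840-137587481, plus strand), the hepatocyte receptor that senses iron-loaded transferrin, had 102 TPM, and *Slc40a1* (chr1:45908068-45926523, minus strand), which encodes ferroportin, had 75.2 TPM. *Hamp2* (13.7 TPM), *Id1* (11.95 TPM), *Tfrc* (9.79 TPM), *Smad7* (3.59 TPM) and *Bmp6* (2.00 TPM) were low, and *Bmp6* had between 50 and 208 counts per library. In the 5 comparisons the median difference over 12338 genes with a mean of at least 1 TPM was 0.0348 to 0.2665 higher on the log2 scale in TPM than in CPM, and levels of 1 gene in different libraries are therefore given below in CPM.

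**Figure D1:**
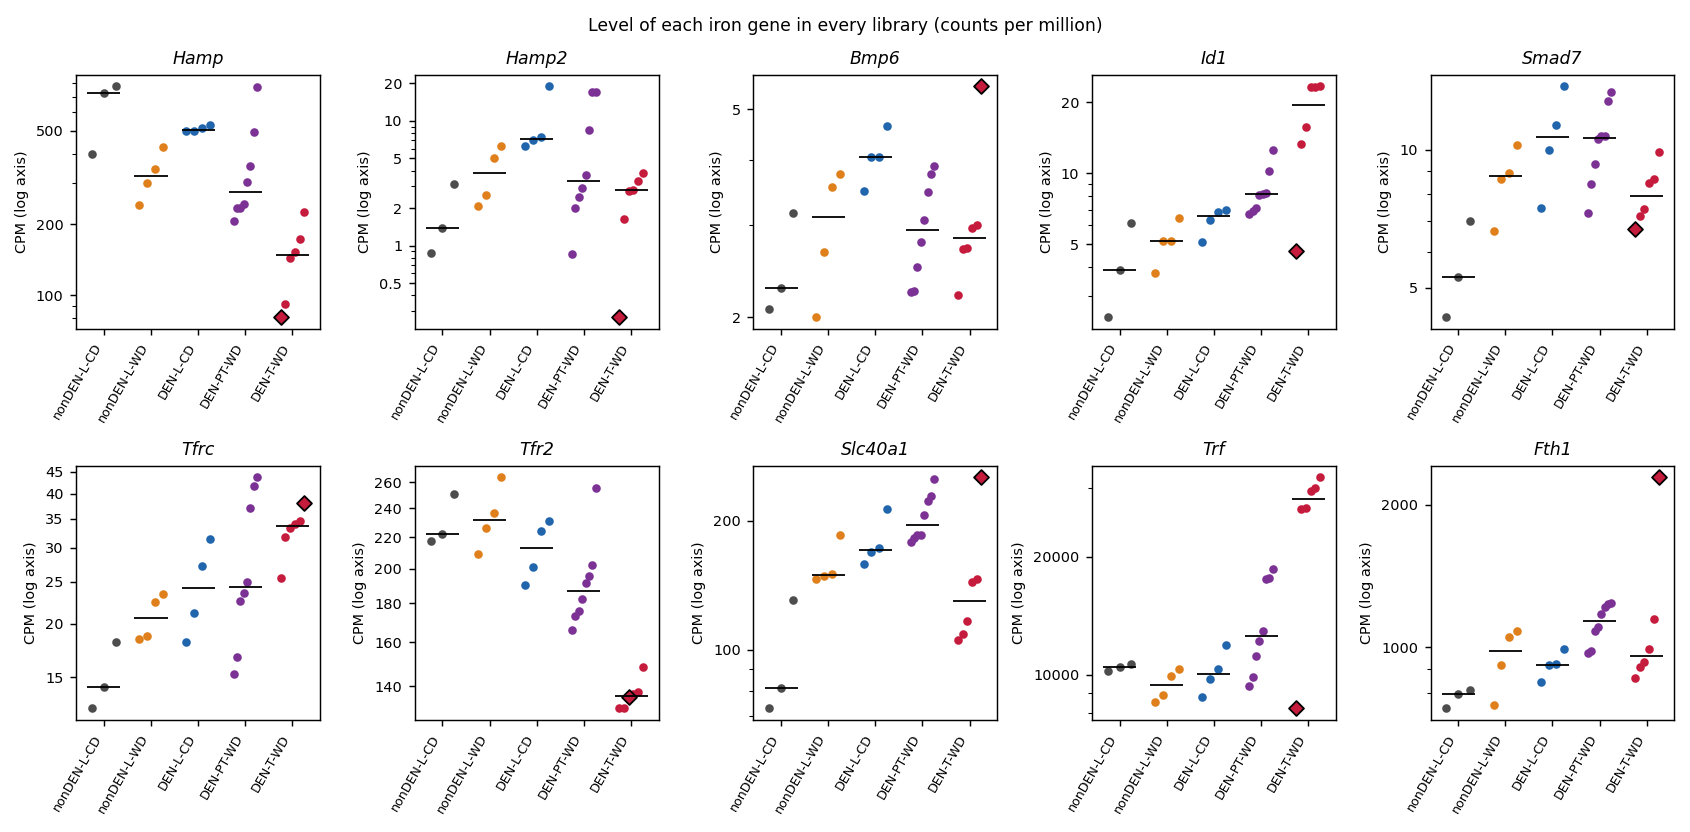
Level of each of the 10 genes in every library, in CPM on a log axis, by group. Points are libraries, lines are group medians and the outlined diamond is DEN-T-WD replicate 5, which lies far from the other tumors for *Bmp6*, *Slc40a1*, *Trf* and *Fth1*, while the other 5 tumors hold the highest *Trf* levels of all libraries.

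The question of the tumor comparison was how tumor tissue differs from the peritumoral liver of mice under the same treatment and diet. In DEN-T-WD against DEN-PT-WD, *Hamp* fell and *Id1* rose by more than 2-fold, *Trf* rose, and *Tfr2* and *Slc40a1* fell by smaller amounts. A gene was called where the difference reached 2-fold (1 on the log2 scale) and the adjusted p was 0.05 or less (edgeR quasi-likelihood test, Benjamini-Hochberg over all genes tested). By this rule 2 of the 10 genes were called, where 7.90% of all 15625 genes were (4.81% higher and 3.09% lower), and 1 of the members was higher and 1 lower. At the adjusted p alone, 5 of the 10 passed, where 37.7% of all genes did. The median log2 fold change was -0.15 over the 10 genes and 0.0099 over all genes. Since whole tissue was sequenced, fewer cells of a type and less RNA per cell cannot be told apart, here and in every comparison below.

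*Hamp* was at 80.5, 91.9, 143, 152, 173 and 225 CPM in the tumors, and ranged from 207 to 769.6 CPM with a median of 274 CPM in DEN-PT-WD. The tumor with the highest *Hamp* overlapped the lowest peritumoral library, and the other 5 tumors lay below all 8. Tumors were 2.46-fold lower (log2 -1.30 ± 0.28, SE; n = 6 and 8; adjusted p = 0.000943, edgeR), and the log2 difference was -1.18 without replicate 5 (adjusted p = 0.00215). *Hamp* was also lower in tumors than in each of the 3 liver groups, with log2 differences of -2.13 against nonDEN-L-CD (adjusted p = 2.06e-05), -1.82 against DEN-L-CD (adjusted p = 8.93e-05) and -1.19 against nonDEN-L-WD (adjusted p = 0.00388). These comparisons share the tumor libraries.

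*Hamp2* was at 0.266 CPM in replicate 5 and between 1.62 and 3.79 CPM in the other tumors, and ranged from 0.854 to 17.1 CPM in DEN-PT-WD (median 3.29 CPM). The groups overlapped, and the log2 difference of -1.49 ± 0.60 did not pass (adjusted p = 0.0551, edgeR), nor did it without tumor replicate 5 (log2 -1.24, adjusted p = 0.0958), although it was called by DESeq2 (adjusted p = 0.0358) and in edgeR without peritumoral replicate 3, 4, 7 or 8 (adjusted p = 0.0253 to 0.0432). *Hamp2* shares 19.5% of its 50-base words with other genes and *Hamp* shares 16.6% with *Hamp2*, so reads in these parts were divided by estimation.

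Genes of the BMP signal that leads to *Hamp* were read next. *Id1* (chr2:152736251-152737410, plus strand), a transcription regulator that is a direct target of BMP signals, was at 4.69 CPM in tumor replicate 5 and at 13.3, 15.7, 23.1, 23.2 and 23.4 CPM in the other tumors. In DEN-PT-WD it ranged from 6.69 to 12.6 CPM (median 8.13 CPM), so that 5 of 6 tumors lay above all 8 peritumoral libraries and replicate 5 lay below them. The log2 difference was 1.02 ± 0.25 (SE; adjusted p = 0.00287, edgeR) and 1.21 without replicate 5 (adjusted p = 2.02e-05). Its size was close to the limit of 1: leaving out another tumor (replicate 1, 2 or 3) or a peritumoral library (replicate 1, 6 or 8) gave log2 differences of 0.91 to 0.98 at adjusted p of 0.00594 to 0.0104, which are not called. Nor was it called with limma on TPM (log2 0.96, adjusted p = 0.00486) or with the replicate number as a block (log2 0.85, adjusted p = 0.0955, edgeR).

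*Smad7*, an inhibitory SMAD that BMP and TGF-beta signals induce, ranged from 6.74 to 9.88 CPM in tumors and from 7.27 to 13.4 CPM in DEN-PT-WD, and its log2 difference of -0.37 ± 0.15 did not pass (adjusted p = 0.0529, edgeR). It passed by DESeq2 (adjusted p = 0.0464), in a fit of both groups alone (adjusted p = 0.0436) and without tumor replicate 1 or peritumoral replicate 3 or 8 (adjusted p = 0.0198 to 0.0367), but not without tumor replicate 5 (adjusted p = 0.103), and with limma on TPM its log2 difference was -0.093 (adjusted p = 0.667). *Bmp6* (chr13:38345107-38500302, plus strand), the ligand itself, was at 5.54 CPM in tumor replicate 5 and between 2.21 and 3.00 CPM in the other tumors, against 2.23 to 3.902 CPM in DEN-PT-WD. Its log2 difference was 0.094 ± 0.19 with all tumors and -0.14 ± 0.17 without replicate 5, so the sign turned on that library and neither value passed. *Bmp6* shares 4.55% of its 50-base words with the neighboring gene *Txndc5*, whose counts were 2854 to 5062. *Id1* was thus above every peritumoral library in 5 of 6 tumors, *Hamp* was below every one in 5 of 6, and in replicate 5 both were low. Of 8 genes of sinusoidal endothelium 0 were called in this comparison, and 4 were lower and 0 higher at the adjusted p (median log2 fold change -0.29). Their summed level was 218 to 313 CPM in tumors and 308 to 377 CPM in DEN-PT-WD, and their part in these differences was not tested.

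**Figure D2:**
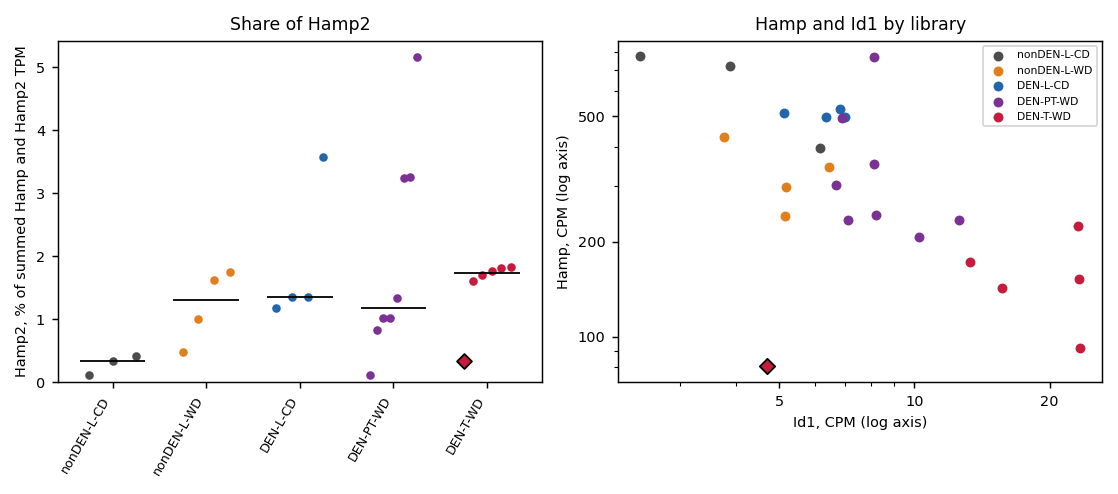
Left, share of *Hamp2* in the summed TPM of *Hamp* and *Hamp2* in percent, by group, with lines at medians. Right, *Hamp* against *Id1* in CPM on log axes. Points are libraries and the outlined diamond is DEN-T-WD replicate 5, and 5 tumors lie at high *Id1* and low *Hamp* while the diamond is low in both.

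Genes of iron uptake and sensing were followed next. *Tfr2*, which hepatocytes use to sense transferrin upstream of hepcidin, was at 131, 131, 135, 137, 138 and 149 CPM in tumors and ranged from 166 to 255 CPM in DEN-PT-WD (median 187 CPM). The groups did not overlap, tumor replicate 5 was among the others at 135 CPM, and tumors were 1.41-fold lower (log2 -0.50 ± 0.082, SE; adjusted p = 6.19e-05, edgeR). *Tfr2* was likewise lower in tumors than in the 3 liver groups (log2 -0.63 to -0.78, adjusted p = 9.66e-07 to 1.56e-05). *Tfrc* (chr16:32608920-32632794, plus strand), the transferrin receptor by which most cells take up iron, ranged from 25.5 to 38.0 CPM in tumors and from 15.3 to 43.7 CPM in DEN-PT-WD, and the log2 difference of 0.22 ± 0.20 did not pass (adjusted p = 0.403, edgeR). Against untreated mice on the control diet, however, *Tfrc* was 2.19-fold higher in tumors (log2 1.13 ± 0.28, adjusted p = 0.00149). Called higher in the same contrast were 6 of 7 erythroid genes (median log2 fold change 1.78; summed level 869 to 2571 CPM in tumors and 384 to 505 CPM in nonDEN-L-CD; the other, *Alas2*, was called lower, at 32.2 to 59.6 CPM and 84.2 to 93.4 CPM), 5 of 7 genes of recruited macrophages (median 3.30; 201 to 396 CPM and 102 to 152 CPM) and 4 of 6 leukocyte genes (median 1.23; 28.3 to 61.2 CPM and 19.1 to 21.9 CPM). Their part in the *Tfrc* difference was not tested.

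Iron export was next. *Slc40a1*, which encodes ferroportin, was at 252 CPM in tumor replicate 5 and at 106, 109, 116, 144 and 146 CPM in the other tumors, and ranged from 178 to 250.4 CPM in DEN-PT-WD (median 196 CPM). Thus 5 tumors lay below all peritumoral libraries and replicate 5 lay above them. The log2 difference was -0.49 ± 0.17 with all tumors (adjusted p = 0.0228, edgeR) and -0.72 ± 0.13 without replicate 5 (adjusted p = 0.000127). Without tumor replicate 2, 3 or 4 it did not pass (log2 -0.41 to -0.43, adjusted p = 0.0603 to 0.0647), nor with limma on TPM (log2 -0.41, adjusted p = 0.0639). Ferroportin is abundant in Kupffer cells, the macrophages of liver. In the same comparison 5 of 7 Kupffer cell genes were called lower (median log2 fold change -1.04), and the range of their summed level was 144 to 257 CPM in tumors and 215 to 499 CPM in DEN-PT-WD, with none of them at 0. Their part in the *Slc40a1* difference was not tested.

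Transport and storage were read last. *Trf* was at 8214 CPM in tumor replicate 5 and at 26404, 26647, 29482, 29902 and 31860 CPM in the other tumors, whereas DEN-PT-WD ranged from 9352 to 18584 CPM (median 12549 CPM). The 5 tumors lay above every other library of the series, and replicate 5 lay below them all. The log2 difference was 0.90 ± 0.21 (SE; adjusted p = 0.00209, edgeR) with all tumors, and 1.08 ± 0.14 without replicate 5 (adjusted p = 4.47e-06), which would be called. In mean TPM *Trf* was the gene of rank 2 in tumors (2.93% of all transcripts), rank 12 in DEN-PT-WD (1.48%), and rank 21 to 22 in the 3 liver groups (0.837% to 0.888%). The summed hepatocyte genes also ranged higher in these 5 tumors (121270 to 159900 CPM) than in DEN-PT-WD (53437 to 89885 CPM), mostly through *Alb*, which encodes albumin (medians of 102210 and 49230 CPM in the 6 tumors and DEN-PT-WD). Of the 7 genes 3 were higher and 2 lower at the adjusted p (median log2 fold change 0.053), and medians were lower in tumors for *Ttr* (1893 against 2609 CPM), *Tat* (496 against 850 CPM) and *Cps1* (1525 against 2240 CPM). Their part in the *Trf* difference was not tested. *Trf* shares 59.4% of its words with other genes, mostly the readthrough gene *Gm20425*, whose counts were at most 0.0939% of those of *Trf*.

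*Fth1* was at 2285 CPM in tumor replicate 5 and between 859 and 1147 CPM in the other tumors, against 973 to 1237 CPM in DEN-PT-WD. The log2 difference was 0.078 ± 0.16 with all tumors (adjusted p = 0.749, edgeR) and -0.22 ± 0.089 without replicate 5 (adjusted p = 0.0538). Replicate 5 thus combined the lowest *Hamp* and *Trf* of all libraries with the highest *Slc40a1*, *Bmp6* and *Fth1*. It is 1 library without a replicate of its own.

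**Figure D3:**
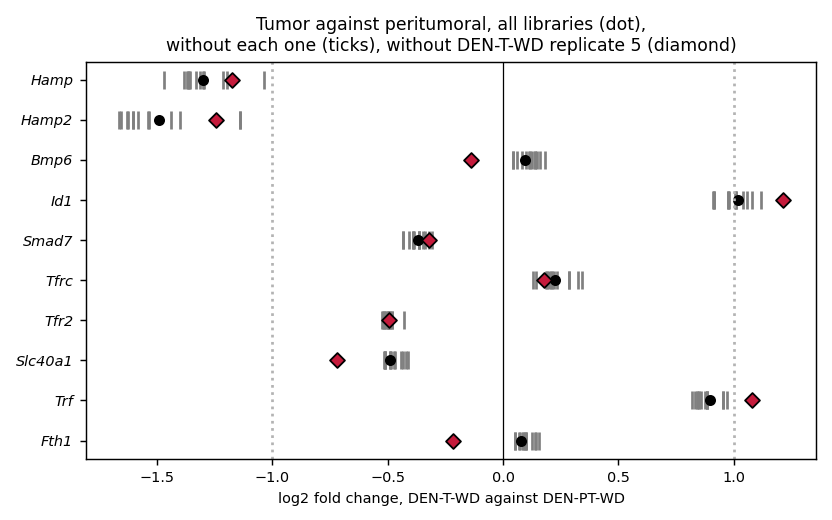
Log2 fold change of DEN-T-WD against DEN-PT-WD for each gene with all libraries (black dot), without each library in turn (gray ticks) and without DEN-T-WD replicate 5 (red diamond); dotted lines mark 1 and -1. *Hamp* stayed beyond -1 in each, and *Bmp6* and *Fth1* changed sign only without replicate 5 among the libraries left out.

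The other genes of iron metabolism were read from lists of 87 genes, of which 84 were tested. Between tumors and DEN-PT-WD, 5 of the 84 were called higher and 2 lower, close to the shares of all genes (4.81% and 3.09%). *Lcn2*, which encodes a siderophore-binding protein of inflammation, was at 230 to 517 CPM in tumors and 16.3 to 204 CPM in DEN-PT-WD, without overlap (log2 2.15 ± 0.61, adjusted p = 0.00801, edgeR). *Slc48a1*, a haem transporter, was at 71.3 to 112 CPM in tumors and 33.1 to 56.9 CPM in DEN-PT-WD (log2 1.03 ± 0.12, adjusted p = 1.27e-06), and without tumor replicate 5 or 6 or peritumoral replicate 1 or 6 the log2 difference was 0.96 to 0.999, under the limit. *Lepr*, the leptin receptor, which signals through STAT3, was at 9.88 to 132 CPM in tumors and 9.92 to 56.9 CPM in DEN-PT-WD (log2 1.14 ± 0.40, adjusted p = 0.0270), and the call was lost without tumor replicate 6 (log2 0.73, adjusted p = 0.145) or without peritumoral replicate 6 (log2 1.04, adjusted p = 0.0509), and in a fit of both groups alone (adjusted p = 0.0730).

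*Heph*, which encodes the iron oxidase hephaestin, was called higher (log2 1.84, adjusted p = 0.00606, edgeR) through tumor replicate 5 alone, which had 52.4 CPM where the other tumors had 3.02 to 3.79 CPM. Without it the log2 difference was 0.11 (adjusted p = 0.437), and with limma on TPM 0.69 (adjusted p = 0.119). *Meltf*, which encodes melanotransferrin and had under 1 TPM in every group, was the other gene called higher (log2 1.94, adjusted p = 0.00171), and it is named after its value was seen. Lower in tumors were *Cd163*, the macrophage receptor for haemoglobin and haptoglobin, which is also among the Kupffer cell genes (log2 -1.75 ± 0.45, adjusted p = 0.00399), and *Alas1*, the first enzyme of haem synthesis (log2 -1.03 ± 0.22, adjusted p = 0.000759). *Alas1* was at 128 to 332 CPM in tumors and at 227 to 764 CPM in DEN-PT-WD, and its log2 difference was -0.90 to -0.98 without tumor replicate 2 or 4 or peritumoral replicate 2, and -0.88 with limma on TPM. Of 21 tested genes for BMP ligands, receptors and signal, 0 were called by edgeR, and 5 were higher and 7 lower at the adjusted p alone (19.5% and 18.1% of all genes were). An unadjusted p under 0.05 was found for 14. The share of all genes at that rule was not counted, and 37.7% passed even the adjusted p.

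The effect of the western diet without DEN was read from nonDEN-L-WD against nonDEN-L-CD. None of the 10 genes was called by edgeR or by DESeq2, where edgeR called 5.28% of all genes. An unadjusted p under 0.05 was found for 3 of the 10. The share of all genes at that rule was not counted, and 23.2% passed even the adjusted p. At the adjusted p alone 2 of the 10 passed, both higher, where 11.2% of all genes were higher by that rule. *Slc40a1* was at 130, 81.4 and 72.9 CPM in nonDEN-L-CD and at 146, 185, 150.4 and 149 CPM in nonDEN-L-WD, without overlap (log2 0.73 ± 0.24, SE; n = 4 and 3; adjusted p = 0.0284, edgeR). In the same comparison 4 of 7 genes of recruited macrophages were called higher (median log2 fold change 1.51; summed level 102 to 152 CPM in nonDEN-L-CD and 86.8 to 191 CPM in nonDEN-L-WD), 0 of 7 Kupffer cell genes (185 to 268 CPM and 229 to 269 CPM) and 0 of 7 erythroid genes (median 0.85; 384 to 505 CPM and 679.6 to 815 CPM). Their part in the *Slc40a1* difference was not tested. *Smad7* was at 7.01, 4.32 and 5.30 CPM and at 8.63, 8.88, 10.2 and 6.66 CPM, and overlapped through 1 library of each group (log2 0.63 ± 0.22, adjusted p = 0.0361). Both rested on few libraries: *Slc40a1* did not pass without nonDEN-L-CD replicate 2 or 3 or nonDEN-L-WD replicate 2 (log2 0.57 to 0.64, adjusted p = 0.0745 to 0.148), nor *Smad7* without nonDEN-L-CD replicate 2 or 3 or nonDEN-L-WD replicate 1, 2 or 3 (log2 0.48 to 0.63, adjusted p = 0.0639 to 0.196), in a fit of both groups alone (adjusted p = 0.0524) or with limma on TPM (adjusted p = 0.183).

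*Hamp* was at 397, 776 and 723 CPM in nonDEN-L-CD and at 299, 243, 346 and 429 CPM in nonDEN-L-WD. The highest western diet library overlapped the lowest control library, and the log2 difference of -0.94 ± 0.38 did not pass (adjusted p = 0.0773, edgeR), although it passed by DESeq2 (adjusted p = 0.0479) and in a fit of both groups alone (adjusted p = 0.0382) without reaching 2-fold. The overlap rested on nonDEN-L-CD replicate 1, and without it *Hamp* was called lower (log2 -1.20, adjusted p = 0.0376) and *Slc40a1* higher (log2 1.01, adjusted p = 0.00698). That library also had the lowest acute phase sum of its group, 25600 CPM, and 10 of 14 acute phase genes were called lower in nonDEN-L-WD. Their part in the *Hamp* difference was not tested. *Hamp2* was at 1.39, 0.872 and 3.10 CPM and at 5.07, 2.53, 6.33 and 2.08 CPM, opposite in direction to *Hamp* (log2 1.16 ± 0.88, adjusted p = 0.365).

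Of the other genes, *Tfrc* did not overlap between these groups (12.7 to 18.1 CPM and 18.4 to 23.4 CPM) but did not pass (log2 0.47 ± 0.29, adjusted p = 0.256, edgeR), except in a fit of both groups alone (adjusted p = 0.0464) or with the replicate block (adjusted p = 0.0455). *Bmp6*, *Id1*, *Tfr2*, *Trf* and *Fth1* had log2 differences between -0.15 and 0.30. Of the 84 tested genes of iron metabolism 2 were called higher and 9 lower, where 3.24% and 2.04% of all genes were. Higher were *Flvcr2*, a transporter first named as a haem importer (log2 1.80 ± 0.35, adjusted p = 0.000902), and *Steap3*, the reductase of iron in endosomes (log2 1.18 ± 0.26, adjusted p = 0.00228). Lower were *Scara5*, a receptor of ferritin, with 33.6, 68.2 and 86.9 CPM in nonDEN-L-CD against 5.02 to 12.4 CPM (log2 -3.13, adjusted p = 0.0122), *Lcn2* (log2 -3.11, adjusted p = 0.0152), *Socs3*, a feedback inhibitor of STAT3 signals (log2 -2.95, adjusted p = 1.61e-05), *Lepr* (log2 -2.59, adjusted p = 0.00330) and *Steap4*, a metalloreductase of inflammation (log2 -2.30, adjusted p = 2.54e-05). *Lcn2* was at 6.93, 147 and 218 CPM in nonDEN-L-CD, with replicate 1 lowest. Its call was lost without replicate 3 (log2 -2.42, adjusted p = 0.0845), with the replicate block (log2 -2.56, adjusted p = 0.103, edgeR) and with limma on TPM (adjusted p = 0.166), where *Flvcr2* was at a log2 of 0.93. The other genes called lower were *Steap1*, *Slc39a14*, *Stat3* and *Hp* (log2 -1.13 to -1.42), of which *Steap1* and *Hp* were not called without nonDEN-L-CD replicate 3, nor *Steap1* without replicate 2. *Lcn2* and *Hp* are also among the acute phase genes.

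DEN on the control diet was compared as DEN-L-CD against nonDEN-L-CD, which shares the same 3 control libraries. None of the 10 genes was called by edgeR, where 4.70% of all genes were, and DESeq2 called 1, *Hamp2*. An unadjusted p under 0.05 was found for 5 of the 10. The share of all genes at that rule was not counted, and 21.3% passed even the adjusted p. *Smad7* (7.47, 11.3, 13.8 and 10.01 CPM in DEN-L-CD) lay above all control libraries (log2 0.94 ± 0.22, SE; n = 4 and 3; adjusted p = 0.00371, edgeR), and so did *Slc40a1* (159, 213, 173 and 169 CPM; log2 0.91 ± 0.24, adjusted p = 0.00872). Both passed at the adjusted p alone, where 9.12% of all genes were higher, and both were called without nonDEN-L-CD replicate 1 (log2 1.13 and 1.20, adjusted p = 0.00209 and 0.00218), *Smad7* also without DEN-L-CD replicate 1 (log2 1.08). *Slc40a1* did not pass without nonDEN-L-CD replicate 2 or 3 (log2 0.81 and 0.75, adjusted p = 0.0608 and 0.0609). Called higher here were 2 of 6 leukocyte genes (median log2 fold change 0.80), 1 of 7 erythroid genes (median 0.95), 1 of 7 genes of recruited macrophages (median 0.68) and 0 of 7 Kupffer cell genes (median 0.16), and their part in these differences was not tested.

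*Hamp2* was at 7.01, 19.1, 6.31 and 7.41 CPM in DEN-L-CD, all above the highest control library at 3.10 CPM, with replicate 2 far above the rest. The log2 difference of 2.47 ± 0.90 did not pass (adjusted p = 0.0524, edgeR), and DESeq2 gave an adjusted p of 0.0214. *Hamp* itself was at 497, 499, 514 and 528 CPM, the narrowest range of the 5 groups, and lay inside the control range (log2 -0.31 ± 0.38, adjusted p = 0.600). *Bmp6* (3.48 to 4.65 CPM) and *Tfrc* (18.2 to 31.4 CPM) lay above the control libraries without passing (log2 0.70 ± 0.28 and 0.70 ± 0.29, adjusted p = 0.0767 and 0.0865), and both passed in a fit of these groups alone (adjusted p = 0.0308 and 0.0387). Of the 84 genes of the iron lists 8 were called lower, where 1.93% of all genes were, and 0 higher (2.76% of all genes). Lower were *Scara5* (log2 -3.28, adjusted p = 0.0102), *Lcn2* (log2 -2.44, adjusted p = 0.04996), *Steap4* (log2 -2.23, adjusted p = 3.49e-05), *Lepr* (log2 -1.81, adjusted p = 0.0280) and *Socs3* (log2 -1.68, adjusted p = 0.00218). The call of *Lcn2* was lost without nonDEN-L-CD replicate 2 or 3 or DEN-L-CD replicate 1, 2 or 3 (adjusted p = 0.0978 to 0.224), and that of *Lepr* without nonDEN-L-CD replicate 2 or 3 or DEN-L-CD replicate 2, 3 or 4 (adjusted p = 0.0592 to 0.135). *Lcn2* was also not called with DESeq2 size factors, without the filter, in a fit of these groups alone or with limma on TPM (adjusted p = 0.0503 to 0.145), nor *Lepr* with limma (adjusted p = 0.0838). *Stat3*, *Slc39a14* and *Hp* were the other genes called lower (log2 -1.07 to -1.20). *Hp* was not called without nonDEN-L-CD replicate 2 or 3 or DEN-L-CD replicate 2 or 3, nor *Stat3* without DEN-L-CD replicate 2. In this comparison 7 of 14 acute phase genes were called lower.

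**Figure D4:**
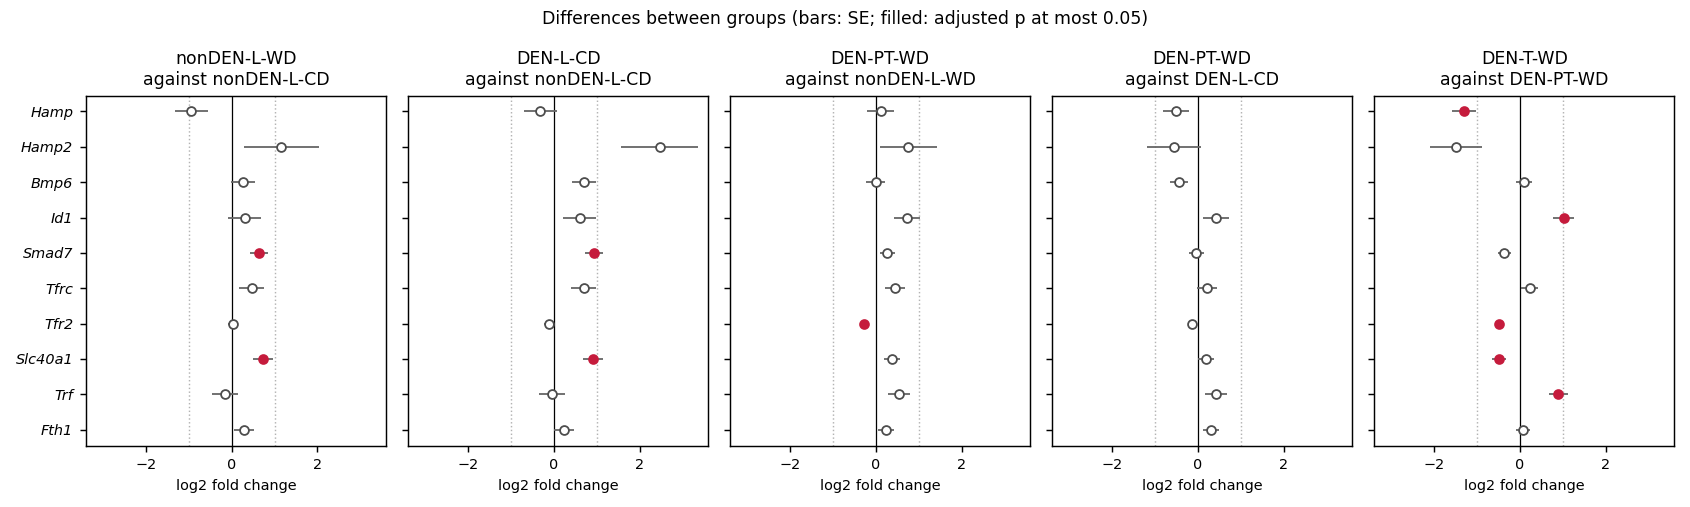
Log2 fold change of each gene in the 5 comparisons, with bars for the SE. Filled points passed an adjusted p of 0.05 (edgeR), and dotted lines mark 1 and -1. The tumor comparison has 5 filled points and the peritumoral comparison with DEN-L-CD has 0.

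Peritumoral liver was compared with the group that lacks DEN and the group that had the other diet, both of them whole liver, so that sampling around tumors cannot be told apart from either factor. Against nonDEN-L-WD none of the 10 genes was called by edgeR or DESeq2 (2.76% of all genes were by edgeR). An unadjusted p under 0.05 was found for 3. The share of all genes at that rule was not counted, and 12.4% passed even the adjusted p. *Tfr2* alone passed the adjusted p, with 226, 209, 237 and 264 CPM in nonDEN-L-WD and a median of 187 CPM in DEN-PT-WD (log2 -0.28 ± 0.091, adjusted p = 0.0456, edgeR), where 4.87% of all genes were lower by that rule. It did not pass without nonDEN-L-WD replicate 1, 3 or 4 or any of DEN-PT-WD replicates 1 to 5 (log2 -0.22 to -0.29, adjusted p = 0.0607 to 0.190), nor without the filter on low counts (adjusted p = 0.0598), in a fit of these groups alone (adjusted p = 0.0859) or with limma on TPM (log2 -0.073, adjusted p = 0.520). *Id1* and *Slc40a1* passed in the last 2 of these (adjusted p = 0.0277 to 0.0400), and *Trf* with limma (log2 0.77, adjusted p = 0.0460). In this comparison the median gene was 0.2018 higher in TPM than in CPM on the log2 scale. *Id1* did not overlap between the groups (3.77 to 6.44 CPM and 6.69 to 12.6 CPM) but did not pass (log2 0.73 ± 0.31, adjusted p = 0.115). *Hamp* differed by a log2 of 0.11 ± 0.31 (adjusted p = 0.847). Among the 84 genes of the iron lists 3 were called higher (2.36% of all genes were), *Lcn2* (log2 2.44, adjusted p = 0.0448), *Lepr* (log2 2.06, adjusted p = 0.0135) and *Meltf* (log2 3.40, adjusted p = 0.0114), whose level near 0 makes its fitted fold depend on the prior count. *Lcn2* lost its call without any of the 4 nonDEN-L-WD libraries or DEN-PT-WD replicate 3, 4, 5 or 8 (adjusted p of 0.0520 to 0.117) or without the filter (adjusted p = 0.0609), and *Lepr* and *Meltf* without nonDEN-L-WD replicate 4 (for *Lepr*, adjusted p = 0.0581). In the same comparison 4 of 7 genes of recruited macrophages were called higher (median log2 fold change 1.35). Of the genes of Kupffer cells (median 0.41) and of stellate cells and fibroblasts (median 0.48) 0 of 7 each were called, and 4 of the latter were higher at the adjusted p. Their part in these differences was not tested.

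Against DEN-L-CD, whose small tumors were not cut out, none of the 10 genes was called or passed the adjusted p by edgeR, none was called by DESeq2, and 0 had an unadjusted p under 0.05. Of all genes edgeR called 1.90%, and 10.6% passed the adjusted p alone. The largest log2 differences were those of *Hamp2* (-0.55 ± 0.63) and *Hamp* (-0.52 ± 0.30, adjusted p = 0.275). Without DEN-PT-WD replicate 7 *Hamp* passed the adjusted p (log2 -0.78, adjusted p = 0.0478, edgeR) but was not called. In a fit of these groups alone *Fth1* passed (adjusted p = 0.0446), and with limma on TPM *Fth1*, *Slc40a1* and *Trf* did (log2 0.53 to 0.69, adjusted p = 0.0277 to 0.0492). In this comparison the median gene was 0.2665 higher in TPM than in CPM on the log2 scale, and edgeR gave log2 differences of 0.20 to 0.42 for these genes. *Hamp* spread more widely in DEN-PT-WD, where replicates 6 and 7 had 495 and 769.6 CPM and the other 6 libraries had 207 to 354 CPM. *Flvcr2* was the gene of the iron lists called here (1.52% of all genes were called higher; log2 1.06, adjusted p = 0.0150), and it was no longer called without DEN-L-CD replicate 3 (log2 0.87, adjusted p = 0.0670) or DEN-PT-WD replicate 8 (log2 0.97), or with limma on TPM (log2 0.84). In the same comparison 5 of 7 genes of recruited macrophages were called higher (median log2 fold change 1.92; 140 to 315 CPM in DEN-PT-WD and 95.5 to 143 CPM in DEN-L-CD), as were 2 of 7 genes of stellate cells and fibroblasts (median 0.45; 510.2 to 782 CPM and 391 to 469 CPM), and their part in the *Flvcr2* difference was not tested.

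Whether the diet difference depended on DEN was tested as an interaction, the difference of DEN-PT-WD from DEN-L-CD less that of nonDEN-L-WD from nonDEN-L-CD. None of the 10 genes was called or passed the adjusted p by edgeR, DESeq2 called 0, and 1 had an unadjusted p under 0.05 (*Smad7*, log2 -0.67 ± 0.27, adjusted p = 0.127), where edgeR called 2.75% of all genes and 8.39% passed the adjusted p alone. For *Hamp* the interaction was 0.42 ± 0.49 on the log2 scale (adjusted p = 0.642). Of the 84 genes of the iron lists 6 were called, all higher (1.57% of all genes were). DEN-PT-WD was cut away from tumors and the other 3 groups were whole liver, so the interaction cannot be told apart from this difference in sampling. *Lcn2* had an interaction of 4.88 ± 1.18 (log2; adjusted p = 0.0129, edgeR), with a diet difference of -3.11 without DEN and 1.78 with DEN. *Lepr* had 3.87 ± 0.77 (adjusted p = 0.00394), from -2.59 without DEN and 1.27 with DEN. *Socs3* (2.48 ± 0.48, adjusted p = 0.00325) and *Steap4* (2.07 ± 0.39, adjusted p = 0.00280) were much lower on the western diet without DEN (-2.95 and -2.30), and differed by -0.47 and -0.23 with DEN. *Inhbb*, which encodes the activin B subunit that can induce hepcidin, had 1.44 ± 0.34 (adjusted p = 0.0117), and its call was lost without nonDEN-L-CD replicate 3 (log2 1.15, adjusted p = 0.0622). *Hp*, which encodes haptoglobin, was the other gene called (log2 1.42, adjusted p = 0.0117). In the same contrast 7 of 14 acute phase genes were called higher, and the part of the high acute phase level of nonDEN-L-CD in these interactions was not tested.

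**Figure D5:**
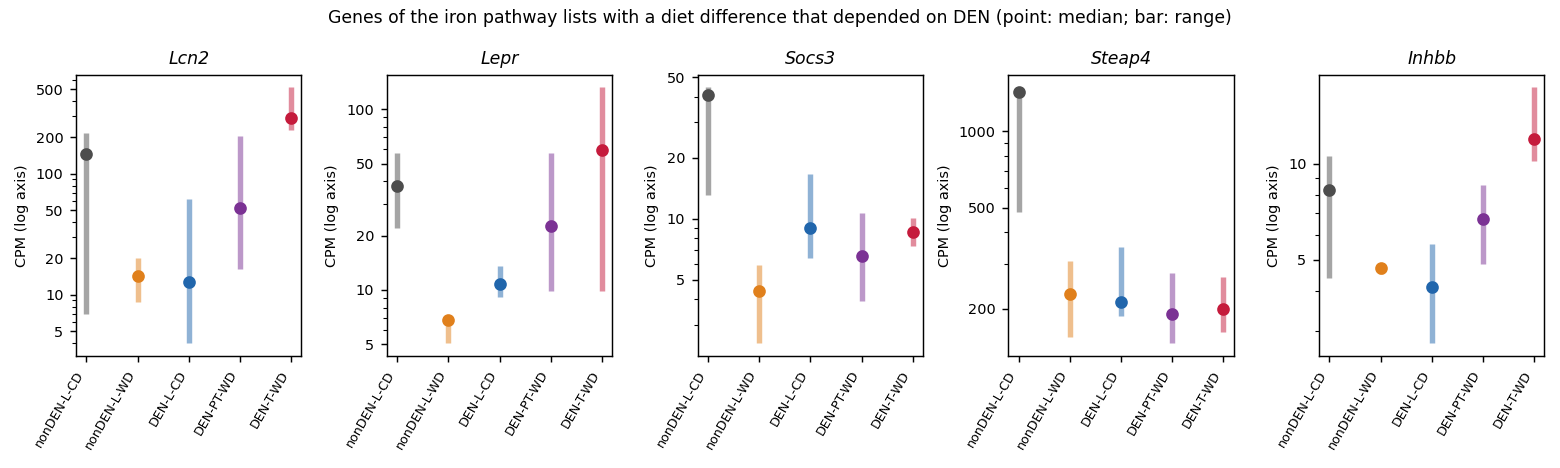
Median (point) and range (bar) of CPM on a log axis, by group, for *Lcn2*, *Lepr*, *Socs3*, *Steap4* and *Inhbb*. Medians of nonDEN-L-CD lie above those of nonDEN-L-WD and DEN-L-CD for each gene, and *Steap4* in nonDEN-L-CD (482.7 to 1491 CPM) lies above all other groups.

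In the order of the group means, *Hamp* was highest in nonDEN-L-CD, at 632 ± 205 CPM (SD, n = 3), followed by DEN-L-CD (509 ± 14.4 CPM, n = 4), DEN-PT-WD (355 ± 192 CPM, n = 8), nonDEN-L-WD (329 ± 78.8 CPM, n = 4) and DEN-T-WD (144 ± 53.4 CPM, n = 6). Neighbors in this order did not pass the test except the last pair. Mean *Id1* had another order, from nonDEN-L-CD (4.17 ± 1.87 CPM) through nonDEN-L-WD (5.14 ± 1.09 CPM), DEN-L-CD (6.33 ± 0.848 CPM) and DEN-PT-WD (8.50 ± 2.00 CPM) to DEN-T-WD (17.2 ± 7.54 CPM), and again the last pair alone passed. Across the wider contrasts, DEN-PT-WD against nonDEN-L-CD called 2 of the 10 genes, both higher (13.3% of all genes were called, 10.2% higher): *Id1* (log2 1.03, adjusted p = 0.0209) and *Slc40a1* (log2 1.11, adjusted p = 0.000341). *Id1* was not called without nonDEN-L-CD replicate 2 or 3 or DEN-PT-WD replicate 3 or 4 (log2 0.76 to 0.98, adjusted p = 0.0314 to 0.144), nor *Slc40a1* without nonDEN-L-CD replicate 3 (log2 0.95). *Hamp* was called lower there without nonDEN-L-CD replicate 1 or DEN-PT-WD replicate 7 (log2 -1.11 and -1.09), and higher were *Smad7* without nonDEN-L-CD replicate 1 (log2 1.08), *Tfrc* without replicate 2 (log2 1.07) and *Hamp2* without DEN-PT-WD replicate 4 or 7 (log2 2.05 and 2.09). In this contrast 5 of 7 genes of recruited macrophages (median log2 fold change 2.86) and 6 of 7 erythroid genes (median 1.34) were also called higher, with summed levels of 140 to 315 CPM and 610 to 1291 CPM in DEN-PT-WD, as was 1 of 7 Kupffer cell genes, while the erythroid gene *Alas2* (52.9 to 74.6 CPM) was lower at the adjusted p alone. Their part in these calls was not tested. DEN-T-WD against nonDEN-L-CD called 4 of 10 (20.3% of all genes), with *Id1* (log2 2.04), *Trf* (log2 1.28) and *Tfrc* higher and *Hamp* lower. DEN-T-WD against DEN-L-CD called 4 of 10 (14.3%), with *Id1* and *Trf* higher and *Hamp* and *Hamp2* lower (*Hamp2* log2 -2.05, adjusted p = 0.0170). *Hamp2* was called without tumor replicate 5 (log2 -1.80, adjusted p = 0.0280) but not without DEN-L-CD replicate 2 (log2 -1.52, adjusted p = 0.0965). DEN-T-WD against nonDEN-L-WD called 3 of 10 (15.7%), *Id1* and *Trf* higher and *Hamp* lower. In tumors against DEN-L-CD and against nonDEN-L-WD, 6 of 7 genes of recruited macrophages were called higher (medians 2.42 and 1.81) and 3 of 7 Kupffer cell genes lower (medians -0.78 and -0.63). Of 7 hepatocyte genes 0 and 1 were called higher, and 2 in each contrast lower. Their part in these calls was not tested. DEN-L-CD against nonDEN-L-WD called 0 of 10 by edgeR (0.250%; none of the 10 had an unadjusted p under 0.05, and the smallest was 0.0911).

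The hepcidin genes did not keep a fixed ratio. *Hamp2* made up 0.340%, 0.109% and 0.413% of the summed TPM of both genes in the 3 nonDEN-L-CD libraries. Group means were higher elsewhere, at 1.21% ± 0.591 for nonDEN-L-WD (SD, n = 4), 1.86% ± 1.15 for DEN-L-CD, 2.00% ± 1.71 for DEN-PT-WD and 1.51% ± 0.582 for DEN-T-WD. All libraries of nonDEN-L-WD and DEN-L-CD lay above the 3 of nonDEN-L-CD. A two-sided exact permutation test of the means gave p = 0.0571 for both (adjusted p = 0.143 over 5 comparisons). With the groups fully apart, this is the smallest two-sided p that 3 and 4 libraries can give. The test could therefore not pass in these comparisons, and it does not decide whether the share differed. The other 3 comparisons gave exact p of 0.444 to 0.986. In DEN-PT-WD the share ran from 0.107% in a library with 769.6 CPM of *Hamp* to 5.17%, the widest range of the groups.

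Within groups, deviations of *Hamp* from the group mean (log2 CPM, 25 libraries) were set against 5 other measures, with 100000 permutations within groups. For *Tfr2* Pearson's r was 0.50 (permutation p = 0.0315, adjusted p = 0.158) and Spearman's rho 0.33 (permutation p = 0.109). Leaving out the 2 libraries whose *Hamp* deviation lay farthest from the median gave an r of 0.24. For *Smad7* r was 0.34 (permutation p = 0.110) and rho 0.29 (p = 0.180), for the mean of the acute phase genes r was 0.25 (p = 0.279) and rho 0.24 (p = 0.284), for *Bmp6* r was 0.067 (p = 0.780) and rho 0.078 (p = 0.738), and for *Id1* r was 0.011 (p = 0.968) and rho -0.25 (p = 0.301). Without the same 2 libraries, which were chosen by *Hamp* alone, r was -0.36 for *Id1*, 0.20 for *Smad7*, 0.19 for the acute phase genes and 0.16 for *Bmp6*. The value near 0 for *Id1* thus depended on these 2 libraries of extreme *Hamp*. None passed the adjustment over the 5 relations, by r or by rho.

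As a description of patterns over all 25 libraries, which mixes group differences with differences within groups, the gene with the highest Pearson correlation of log2 CPM was listed among 12337 others for the members named here. For *Trf* it was *Cp*, the ferroxidase ceruloplasmin (r = 0.978), for *Tfr2* it was *Lcat* (r = 0.953), for *Fth1* it was *Gstm1* (r = 0.947) and for *Id1* it was *Aebp1* (r = 0.943). *Slc40a1* was most like *Nampt* (r = 0.916), *Hamp* like *9330121J05Rik* (r = 0.908), *Smad7* like *Dclk3* (r = 0.846), *Tfrc* like *Smc2* (r = 0.800) and *Hamp2* like *Pex7* (r = 0.796). The next 2 genes for *Hamp* were *Pfdn6* (r = 0.902) and *Apoa5* (r = 0.900). *Cp* is 1 of the 84 tested genes of the iron lists, and like *Trf* it encodes a protein that hepatocytes secrete.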

How the data were processed

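RNA was extracted from pulverized liver or tumor tissue, and polyadenylated RNA was sequenced single-end. The authors aligned reads with STAR and quantified genes with RSEM against GRCm38, after quality checks with FastQC; the versions of STAR and RSEM, which annotation was used and whether strand was counted were not given in the sources used here. The deposited tables hold an expected count per gene, RSEM's estimate, which need not be whole because reads that fit several genes are divided, and TPM, which the authors' pipeline scales by gene length and to the same total in each library. Depth was between 21530083 and 38074411 expected counts.

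Expected counts were rounded, genes were filtered with filterByExpr (minimum count 10), and a fit over all 5 groups was made in edgeR 4.0.16 (R 4.3.3) with TMM scaling and the quasi-likelihood test. P-values were adjusted by Benjamini-Hochberg over 15625 genes, and an SE is the log2 fold change over the root of F. Levels are CPM scaled by TMM. Gene symbols, exons and stem loops were taken from GENCODE M21, which matched 48349 of 48795 identifiers, and promoters from RefSeq. Alternatives were DESeq2 1.42.0, DESeq2 size factors, no filter, limma 3.58.1 on log2(TPM + 1), fits of the compared groups alone, a replicate block, and leaving out each library. The edgeR code was tested on simulated data. The share of *Hamp2* was compared by a two-sided exact permutation test (SciPy 1.17.1).

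The members and lists were chosen with earlier results of these data known. Named were the 10 members, up to 5 called genes of the iron lists per direction and comparison with at least 1 TPM in a group compared, and the 3 genes most like each member by Pearson correlation over 25 libraries, among genes with a mean of at least 1 TPM. The most similar gene of 1 member is not reported here. Replicates are the samples the labels number within a group. Proteins and the promoters of *Id1*, *Smad7*, *Slc40a1* and *Trf* were not analysed here.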

Additional observations from a re-analysis of the deposited data

Results flagged for a closer look

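Among 92 sets of 4 to 8 libraries of a group, 16 held a highest or lowest value whose gap to the nearest library was large for the range of the group (Dixon's criterion). Chance alone flags about 1 group in 20, and 7 of the 16 values belonged to DEN-T-WD replicate 5. The sets included the genes of the iron lists that were named for a call. *Heph* was called through that library alone, so its flag followed from how it was chosen and cannot be set against the chance rate.

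In DEN-T-WD replicate 5, *Bmp6* was at 5.54 CPM where the other tumors had 2.21 to 3.00 CPM, and *Slc40a1* was at 252 CPM where they had 106 to 146 CPM. *Trf* was at 8214 CPM where they had 26404 to 31860 CPM, and *Fth1* was at 2285 CPM where they had 859 to 1147 CPM. The share of *Hamp2* in both hepcidin genes was 0.331% there and 1.60% to 1.83% in the others. Of the iron lists, *Steap3*, the endosomal reductase, was at 25.2 CPM against 8.93 to 12.8 CPM, and *Heph* was at 52.4 CPM against 3.02 to 3.79 CPM. In the same library recruited macrophage genes summed to 396 CPM against 201 to 351 CPM, leukocyte genes to 61.2 CPM against 28.3 to 42.0 CPM, and sinusoidal endothelium genes to 218 CPM against 274 to 313 CPM, and their part in these values was not tested.

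*Hamp2* stood out in DEN-L-CD replicate 2, with 19.1 CPM against 6.31 to 7.41 CPM in the other libraries of its group and a share of 3.58% against 1.18% to 1.35%. *Tfr2* was high in DEN-PT-WD replicate 7, at 255 CPM against 166 to 202 CPM, the library that also had the highest *Hamp* (769.6 CPM) of its group. *Tfr2* was also high in DEN-T-WD replicate 3, at 149 CPM against 131 to 138 CPM. In nonDEN-L-WD, replicate 2 had 185 CPM of *Slc40a1* against 146 to 150.4 CPM and 2.56 CPM of *Flvcr2* against 5.27 to 5.71 CPM, replicate 1 had 12.4 CPM of *Scara5* against 5.02 to 6.16 CPM, and replicate 4 had 5.08 CPM of *Lepr* against 6.76 to 7.00 CPM. *Inhbb* was at 17.4 CPM in DEN-T-WD replicate 4 and at 10.2 to 12.3 CPM in the other tumors.

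The interaction of diet with DEN passed the test of edgeR for 5 named genes of the iron lists, and it cannot be told apart from sampling around tumors in DEN-PT-WD. The interaction was 4.88 on the log2 scale for *Lcn2*, 3.87 for *Lepr*, 2.48 for *Socs3*, 2.07 for *Steap4* and 1.44 for *Inhbb*. With the replicate number as a block, *Lcn2* and *Socs3* were no longer called (adjusted p = 0.0531 and 0.0622, edgeR).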

How the results depend on the processing

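For single genes, 1993 of 2084 values computed under another setting kept their direction or stayed without a call, 70 lost a call, 21 gained one and 0 reversed it. DESeq2 and a fit of the compared groups alone each called 1 member, *Hamp2*, for DEN on the control diet, where edgeR over all groups called 0. With limma on log2(TPM + 1), 1 member was called between tumors and DEN-PT-WD, and the genes of the iron lists outside the members that were called numbered 7 for the diet without DEN and 12 for the interaction. Leaving *Trf* out of the library totals, an alternative chosen after seeing the data, changed no count of members called. Leaving out each library in the wider contrasts was also added after seeing the data. The cause of these changes was not tested.

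Without each library in turn, members called ranged from 0 to 2 for the diet without DEN and for DEN on the control diet, from 1 to 3 for tumors, and were 0 for DEN-PT-WD against nonDEN-L-WD or DEN-L-CD and for the interaction. Counts of the iron lists ranged from 8 to 12 (diet), 4 to 9 (DEN on the control diet), 0 to 3 (DEN-PT-WD against nonDEN-L-WD), 0 to 2 (DEN-PT-WD against DEN-L-CD), 5 to 7 (tumors) and 5 to 9 (interaction). Counts moved by over 1.5 times without nonDEN-L-CD replicate 2 or DEN-L-CD replicate 2 (5 and 4 genes for DEN on the control diet), nonDEN-L-WD replicate 4 (0 for DEN-PT-WD against nonDEN-L-WD), and DEN-L-CD replicate 3 or 4 or DEN-PT-WD replicate 8 (0, 2 and 0 where DEN-PT-WD was set against DEN-L-CD). The difference in the share of *Hamp2* ranged from 0.742 to 1.17 percentage points for the diet, 1.00 to 1.80 for DEN on the control diet, 0.334 to 1.06 and -0.320 to 0.705 for DEN-PT-WD against nonDEN-L-WD and DEN-L-CD, and -0.759 to -0.0359 for tumors.

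The labels do not say whether libraries of the same replicate number share a mouse or a day. The correlation of deviations of same-numbered libraries ran from -0.230 to 0.388 over the 5 comparisons, and in none of them was each pair over 0.1. The correlation was highest with the library of the same number in 3 of 3 pairs for DEN on the control diet and 2 of 3 for the diet without DEN. It was so in 1 of 4 and 2 of 4 for DEN-PT-WD against nonDEN-L-WD and DEN-L-CD, and in 1 of 6 for tumors. With the replicate number as a block, 2 members were called for the diet (*Hamp*, log2 -1.05, and *Hamp2*, log2 1.45) and 1 in tumors, where *Id1* was at 0.85 on the log2 scale (adjusted p = 0.0955, edgeR), and *Hamp* passed the adjusted p in DEN-PT-WD against DEN-L-CD (log2 -0.92, adjusted p = 0.0220). In that fit the adjusted p was also missed by *Slc40a1* for the diet (0.0522), *Smad7* and *Slc40a1* for DEN on the control diet (0.107 and 0.0737), *Tfr2* in DEN-PT-WD against nonDEN-L-WD (0.0999), and *Slc40a1* and *Trf* in tumors (0.0884 and 0.0775), and 0 genes of the iron lists were called for DEN on the control diet, 4 in tumors and 3 for the interaction. Counting error limits *Bmp6*, with 50 to 208 counts, and *Hamp2*, with as few as 10.4 counts.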
